A study of Mus musculus with 8 samples.

Results

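The 42 collagen genes examined here are all protein-coding genes of the deposited table whose name has the form Col, a number, a, and a number, out of 25343 genes in all. They fall into 11 genes of fibrillar collagens, 8 genes of basement membrane collagens and 23 genes of all other collagens. RNA of cochlear hair cells, which turn sound into nerve signals, was measured after sorting by an Atoh1-GFP reporter. There were 4 libraries of Ndp knockout mice (Ndp KO) and 4 of wild-type mice (WT). Ndp encodes norrin, a secreted ligand of the Fzd4 receptor. All animals were on a mixed C57BL/6 and 129 background and aged postnatal day 4 to 6, and every library came from a pool of 12 to 20 sensory epithelia sorted for the same reporter. Full-length cDNA was made from a very small amount of total RNA. The allele of the knockout, the sex of the pups and the number of animals in a pool are not given in the sources used here. Libraries of a genotype may share litters or cultures of which nothing is said, so the p-values given below rest on library-to-library spread alone, some of which may be technical.

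Collagens are secreted proteins in which chains wind around one another into a rigid helix, and some types, such as I, IV, V, VI, IX and XI, combine chains from different genes. Fibrillar collagens such as types I, II, III, V and XI assemble into fibres, type IV collagen forms the meshwork of basement membranes, and fibril-associated collagens such as type IX decorate fibres. In the cochlea, types II, IX and XI are known from the tectorial membrane and the connective tissue and cartilage around the sensory epithelium, and the Col4a3, Col4a4 and Col4a5 chains from the basement membranes of the organ of Corti and the spiral limbus.

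Libraries held 35077950 to 48329827 reads recovered from the deposited normalized counts. Ndp had 10.5, 22.6, 66.8 and 45.1 normalized counts in the Ndp KO libraries 1 to 4, against 174, 90.4, 114 and 206 in the WT libraries 1 to 4, so the genotypes did not overlap in the targeted gene. The log2 difference of Ndp was -2.20 ± 0.56 (SE), and with an adjusted p of 0.895 in limma the targeted gene itself was not called. All 16 listed hair cell markers were measured, and their summed level was 461454 to 544312 normalized counts in Ndp KO and 438321 to 484041 in WT. Positive log2 differences were found for 11 of the 16 (68.8%, against 52.5% of all genes tested). In limma 3 had an unadjusted p under 0.05, all higher in Ndp KO (18.8%, against 3.1% of all genes tested in that direction). After adjustment 0 passed. The 16 listed markers of supporting and sensory epithelium cells summed to 324137 to 411307 in Ndp KO and 265559 to 476520 in WT, of which Tectb alone averaged 179660 in Ndp KO and 214099 in WT. Of these 16 markers 11 had a negative log2 difference and 3 an unadjusted p under 0.05 in limma, all lower in Ndp KO (18.8%, against 2.47% of all genes tested in that direction), and 0 passed after adjustment. Hes5, a Notch target, had 3161, 4348, 1998 and 3862 normalized counts in Ndp KO, against 6951, 7528, 5014 and 6109 in WT, and Hey1, another, averaged 3177 ± 567 in Ndp KO and 4826 ± 941 in WT (SD, n = 4 each). Both were lower in Ndp KO without overlap (12.5% of the 16, against 1.58% of all genes tested), with an adjusted p of 0.895 in limma. The part of supporting cells in the collagen values was not tested. WT libraries 2 and 4 and Ndp KO library 4 stood apart in the collagen genes. Among the 30 members with 10 or more normalized counts in every library, WT library 4 was the lowest of the 8 for 15 (50% of members, against 22.5% of all genes at that level). WT library 2 was the highest for 10 of them (33.3%, against 16.9% of all genes) and Ndp KO library 4 for 8 (26.7%, against 4.95%). Among the 8 libraries, WT library 2 and Ndp KO library 2 share a date in their titles, and no other date occurs in both genotypes.

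Collagen RNA made up 0.274% to 0.580% of all normalized counts of a library. Divided by coding length, the level of Col2a1, which encodes the type II chain, was the highest of all members, at 14827 normalized counts per kb in Ndp KO and 13918 in WT. The 3 chains of type IX came next, with 10159 per kb in Ndp KO and 11784 in WT for Col9a2, 7857 and 7055 for Col9a1, and 6989 and 7263 for Col9a3. Col11a2, a type XI chain that copolymerises with type II, had 1748 normalized counts per kb in Ndp KO and 1424 in WT. It was followed by Col18a1, whose product carries the endostatin fragment, at 1538 and 1335 per kb. In WT the neighbours Col2a1 and Col9a2, Col9a1 and Col9a3, and Col11a2 and Col18a1 differed by less than the SD between libraries. The order of the first 10 members was the same when transcript length replaced coding length. At the other end, 11 members were listed at 0 in at least 1 library, and Col24a1 had the lowest mean over the 8 libraries, with 0.260 normalized counts per kb in Ndp KO and 0.571 in WT. Col6a4 and Col28a1 had no read in Ndp KO. The detection floor, taken as 3 reads, corresponded to 2.34 to 3.49 normalized counts.

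**Figure D1:**
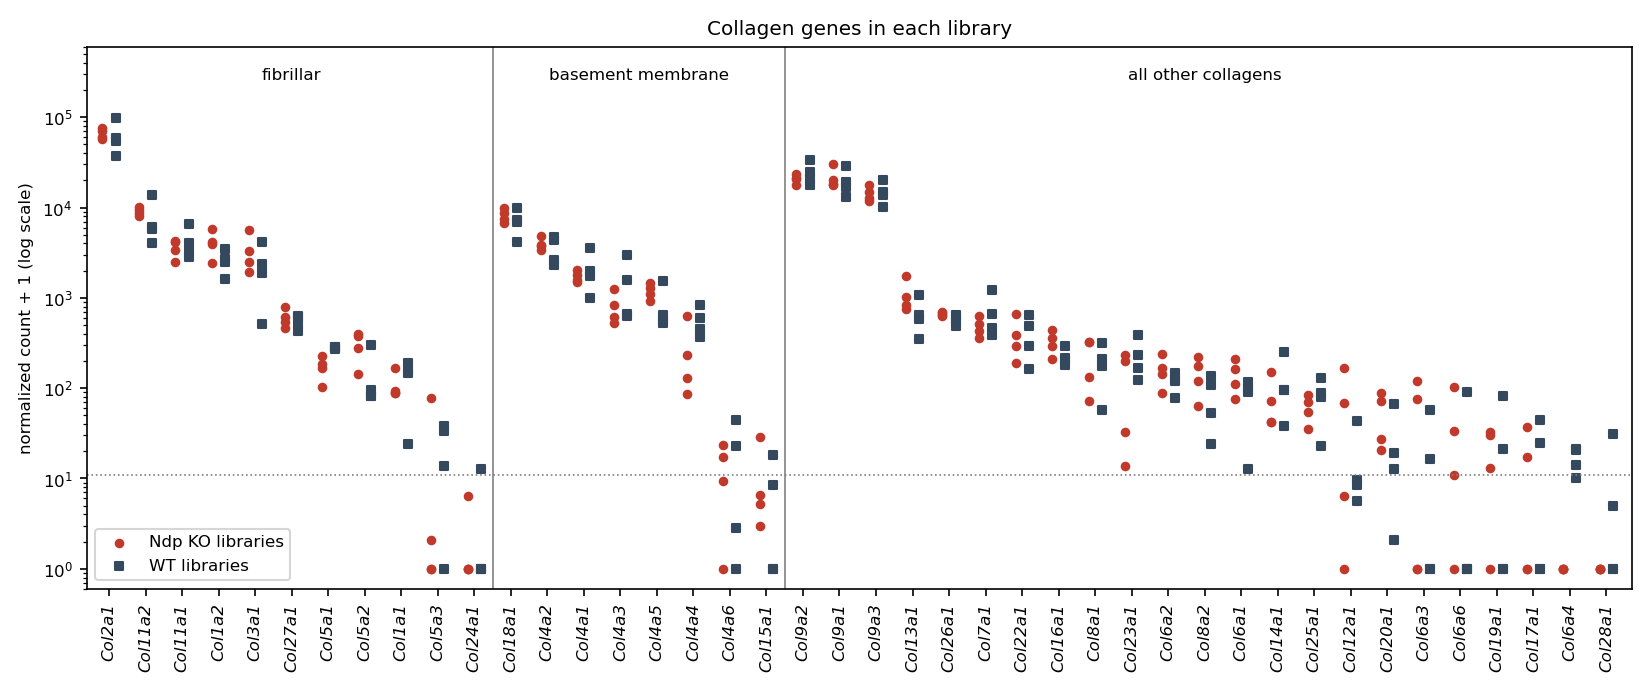
Normalized counts plus 1 of each of the 42 collagen genes (log scale) in the 4 Ndp KO libraries (red circles) and the 4 WT libraries (dark squares), by class and by mean level. The dotted line marks the minimum of 10 normalized counts. Col2a1 and the 3 type IX genes have the highest means, and the genotypes overlap for most members.

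The comparison of the genotypes asks whether collagen RNA differs in hair cell preparations of Ndp KO mice. Of the 42 members, 36 reached 10 normalized counts in at least 4 of the 8 libraries and were tested, and for 5 of these 36 neither genotype reached that level in all 4 of its libraries. None of the 36 passed the adjusted threshold of 0.05 in limma, and the lowest adjusted p was 0.895. In the same limma fit 0.00549% of all 18203 genes tested passed. At an unadjusted p under 0.05 there were 4 members (11.1% of those tested), 2 higher and 2 lower in Ndp KO, against 5.57% of all genes tested, of which 3.1% were higher and 2.47% lower. This count was 1 without Ndp KO library 1, 8 without WT library 2, 2 without WT library 4 and 7 without both libraries of the shared date. edgeR on the recovered reads called 0 members (0.0% of all genes tested) and had 2 at an unadjusted p under 0.05 (4.55% of all genes tested), while DESeq2 called 1 (Col6a4, 0.136% of all genes) and had 5 at an unadjusted p under 0.05 (6.09%). In simulated data of this design limma called 32 of 100 genes changed 2-fold and 74 of 100 changed 4-fold, and edgeR called 32 and 72. DESeq2 called 51 and 79, with more false calls, 47 against 5 by each of the other tools. The simulation gave both genotypes the same spread, whereas the SD was larger in WT for 73.7% of genes at 10 or more counts in every library. It held only genes that reached the minimum, whereas the DESeq2 fit above also covered lower genes such as Col6a4. It also held 100 genes changed 2-fold and 100 changed 4-fold, whereas limma called 1 of 18203 genes in the data. The adjustment is less strict where more genes change, so these shares can overstate how often a lone change would be called. The simulated counts therefore describe these fits only roughly.

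The log2 difference (Ndp KO minus WT, of the normalized count plus 1) was positive for 22 of the 36 members (61.1%, against 52.5% of all genes tested). Its median was 0.16 over the members and 0.02 over all genes tested. By class the median was 0.14 for fibrillar collagens (7 positive, 3 negative), 0.11 for basement membrane collagens (4 positive, 3 negative; -0.27 by edgeR and -0.26 by DESeq2) and 0.18 for the others (11 positive, 8 negative). Without WT library 4 the median over the members was -0.02, so its sign rested on that library. The SD of the log2 level was larger in WT than in Ndp KO for 23 of the 30 members at 10 or more counts in every library (76.7%), close to the share of all genes (73.7%). Genotypes did not overlap for 1 tested member, Col5a1 (2.78% of those tested, against 3.04% of all genes tested), and for the untested Col6a4. Both were lower in Ndp KO, a direction in which 1.58% of all genes tested did not overlap, and no member was without overlap and higher, against 1.46% of all genes.

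**Figure D2:**
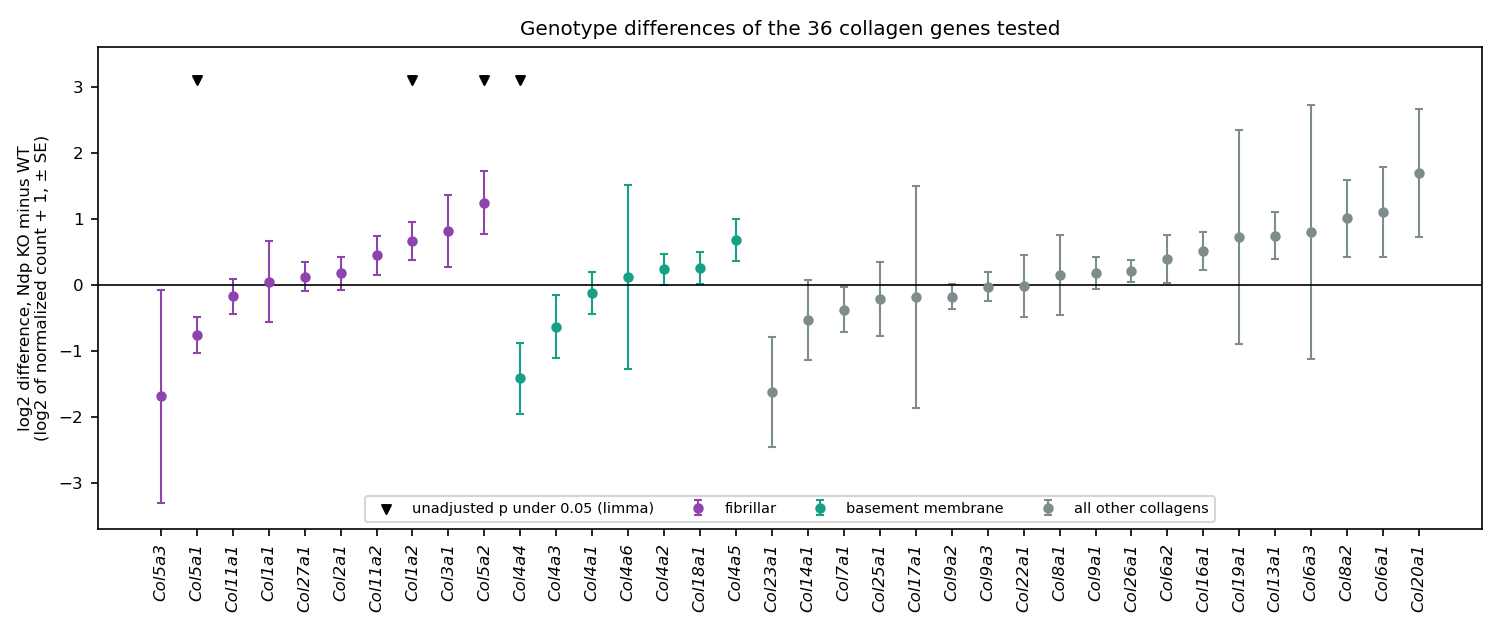
Log2 difference (Ndp KO minus WT, of normalized count plus 1) with its standard error for the 36 collagen genes tested, by class and size. Triangles mark the 4 genes at an unadjusted p under 0.05 in limma, Col5a1 at -0.77, Col1a2 at 0.66, Col5a2 at 1.24 and Col4a4 at -1.42. None passed after adjustment.

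Among the fibrillar collagens, Col2a1 (ENSMUSG00000022483, chromosome 15, 97975602 to 98004695, minus strand, mm10), the main chain of cartilage and tectorial membrane fibrils, had 57424, 70021, 60752 and 76371 normalized counts in Ndp KO libraries 1 to 4. In WT libraries 1 to 4 it had 59361, 97281, 54806 and 36910. The Ndp KO values lay inside the WT range, and the log2 difference was 0.17 ± 0.25 (SE). The type XI chain Col11a2 had 9106 ± 853 normalized counts in Ndp KO and 7414 ± 4264 in WT (SD, n = 4 each), and Col11a1 had 3597 ± 827 and 4200 ± 1695. Both type XI chains varied less in Ndp KO than in WT.

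Type V collagen copolymerises with type I and helps set fibre diameter, and its main chains had log2 differences of opposite sign. Col5a1 (ENSMUSG00000026837, chromosome 2, 27886425 to 28039514, plus strand) had 103, 183, 226 and 165 normalized counts in Ndp KO, against 284, 267, 278 and 284 in WT. All 4 Ndp KO libraries lay below all WT libraries, and the WT libraries were close together. The log2 difference was -0.77 ± 0.28 (SE) and the limma adjusted p was 0.895. This difference ranged from -0.92 to -0.55 over 16 other settings. Col5a2 (ENSMUSG00000026042, chromosome 1, 45374321 to 45503282, minus strand) had 377, 143, 278 and 394 in Ndp KO, against 80.2, 300, 95.1 and 80.2 in WT. WT library 2 lay within the Ndp KO range and the other WT libraries below it. The log2 difference of Col5a2 was 1.24 ± 0.48 (SE) and the limma adjusted p was 0.895. The difference was 1.70 without WT library 2, 2.01 without both libraries of the shared date, and -1.06 between those libraries of that date alone. Col5a3, the type V chain with the lowest level per kb, had 0, 0, 76.7 and 1.10 in Ndp KO, against 12.7, 37.4, 32.7 and 0 in WT. Its Ndp KO reads came from library 3 almost alone. Exons of Col5a1 overlap those of 2 gene models on the opposite strand, over 99 and 113 bases, and the library kit does not mark strand.

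Type I collagen is the main fibre of bone and loose connective tissue and is built from Col1a1 and Col1a2 chains. Col1a2 (ENSMUSG00000029661, chromosome 6, 4504814 to 4541544, plus strand) had 4178, 2430, 3899 and 5858 normalized counts in Ndp KO, against 3467, 2478, 2673 and 1614 in WT. In 3 of 4 Ndp KO libraries it was above every WT library. The log2 difference was 0.66 ± 0.28 (SE) and the limma adjusted p was 0.895. The difference was -0.03 between the libraries of the shared date. Col1a1 had 86.4, 87.3, 168 and 92.4 in Ndp KO, against 187, 159, 147 and 23.3 in WT. Per kb of coding length Col1a1 stood at 0.0149 to 0.0406 of Col1a2 in Ndp KO and at 0.0136 to 0.0605 in WT, although most type I protein holds more Col1a1 than Col1a2 chains. Col3a1, the chain of type III collagen in soft connective tissue, had 2511, 1942, 3303 and 5643 in Ndp KO, against 1907, 2347, 4142 and 514 in WT. These values overlapped, with WT library 4 far below the rest. Col27a1, a fibrillar collagen of cartilage, averaged 597 ± 140 in Ndp KO and 545 ± 91.2 in WT (SD, n = 4 each). Col24a1 was not tested, with reads in only 1 library of each genotype, 5.41 normalized counts in Ndp KO library 3 and 11.9 in WT library 2.

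Among the basement membrane collagens, the type IV genes lie head to head in pairs. Col4a1 (chromosome 8, 11198423 to 11312826, minus strand) and Col4a2 (11312805 to 11449287, plus strand) overlap by 22 bases at their starts. Col4a4 (ENSMUSG00000067158, chromosome 1, 82448423 to 82586849, minus strand) and Col4a3 (82586921 to 82722059, plus strand) start 71 bases apart. Col4a6 (chromosome X, 141165403 to 141474076, minus strand) and Col4a5 (141475385 to 141689234, plus strand) start 1308 bases apart. RefSeq promoter windows are shown for 5 of the 6 type IV genes, and none was available for Col4a3. They run from 250 bases before to 50 bases after the start (GRCm38.p6), 5′ to 3′ on the strand of the gene. They are shown because the genes of each pair start beside each other and the counts of both are set side by side below. Capitals mark GGGCGG (the GC box) and CCAAT on either strand, and no TATAAA (the TATA box) was found in these 5 windows. The windows cover, in the order shown, chr8:11312777-11313076 on the minus strand, chr8:11312555-11312854 on the plus strand, chr1:82586800-82587099 on the minus strand, chrX:141475169-141475468 on the plus strand and chrX:141474027-141474326 on the minus strand.
Col4a1: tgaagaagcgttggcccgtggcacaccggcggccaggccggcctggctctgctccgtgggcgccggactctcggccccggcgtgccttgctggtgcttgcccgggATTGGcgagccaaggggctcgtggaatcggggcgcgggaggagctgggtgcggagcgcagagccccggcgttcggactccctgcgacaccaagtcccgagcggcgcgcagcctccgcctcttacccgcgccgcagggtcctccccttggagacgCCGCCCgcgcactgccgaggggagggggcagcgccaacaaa
Col4a2: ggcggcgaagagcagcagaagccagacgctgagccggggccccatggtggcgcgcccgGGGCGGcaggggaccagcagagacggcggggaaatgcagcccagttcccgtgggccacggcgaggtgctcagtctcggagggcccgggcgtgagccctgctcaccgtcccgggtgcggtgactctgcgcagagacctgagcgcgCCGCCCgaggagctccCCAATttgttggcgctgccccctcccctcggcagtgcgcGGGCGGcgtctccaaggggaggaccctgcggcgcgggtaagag
Col4a4: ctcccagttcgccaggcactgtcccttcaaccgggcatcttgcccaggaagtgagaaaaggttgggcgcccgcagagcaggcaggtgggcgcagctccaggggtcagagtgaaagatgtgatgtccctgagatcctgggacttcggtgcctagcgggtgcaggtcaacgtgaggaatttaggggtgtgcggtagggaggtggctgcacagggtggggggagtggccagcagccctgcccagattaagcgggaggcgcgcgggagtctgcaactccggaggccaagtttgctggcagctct
Col4a5: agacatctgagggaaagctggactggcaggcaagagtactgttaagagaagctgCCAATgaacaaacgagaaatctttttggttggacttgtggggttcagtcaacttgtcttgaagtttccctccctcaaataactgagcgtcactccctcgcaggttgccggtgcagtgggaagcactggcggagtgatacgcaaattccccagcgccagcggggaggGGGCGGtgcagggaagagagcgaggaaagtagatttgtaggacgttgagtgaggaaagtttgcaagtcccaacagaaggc
Col4a6: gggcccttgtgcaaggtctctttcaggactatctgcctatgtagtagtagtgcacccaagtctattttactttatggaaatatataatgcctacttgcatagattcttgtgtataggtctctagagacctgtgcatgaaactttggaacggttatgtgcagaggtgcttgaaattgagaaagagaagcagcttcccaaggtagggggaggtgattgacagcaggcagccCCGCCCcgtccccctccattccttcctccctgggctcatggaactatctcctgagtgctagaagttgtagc

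The Col4a1 and Col4a2 windows share 78 bases, read on opposite strands, and both are rich in G and C, at 74% and 73.7% against a median of 52.7% over all windows. The Col4a4 window, at 63.3% G and C, holds none of the motifs, and the Col4a6 window has 1 GGGCGG. Of 32851 promoter windows, 35.7% hold GGGCGG on either strand, 37.4% CCAAT and 13.6% TATAAA. Among the 36 windows of 33 collagen genes the counts were 22 (61.1%), 13 (36.1%) and 4 (11.1%). A match says only that these letters occur there.

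Col4a1 and Col4a2 encode the chains of the most widespread type IV network. Col4a1 had 1595, 1785, 2011 and 1495 normalized counts in Ndp KO, against 1728, 3527, 2002 and 991 in WT. Col4a2 had 3848, 3707, 4807 and 3405 in Ndp KO, against 2606, 4338, 4666 and 2336 in WT. The Ndp KO libraries lay within the WT range for Col4a1, and all but library 3 did for Col4a2. The ratio of Col4a1 to Col4a2 per kb was 0.424, 0.492, 0.428 and 0.449 in Ndp KO, against 0.678, 0.832, 0.439 and 0.434 in WT. Col4a1 RNA was thus below Col4a2 RNA in all 8 libraries, with 2 WT libraries above the Ndp KO range.

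The Col4a3, Col4a4 and Col4a5 chains form the network whose loss causes Alport syndrome, a kidney disease with hearing loss. Col4a4 had 622, 84.3, 130 and 232 normalized counts in Ndp KO, against 832, 454, 365 and 603 in WT. Ndp KO library 1 lay within the WT range and the other Ndp KO libraries below it. The log2 difference of Col4a4 was -1.42 ± 0.54 (SE) and the limma adjusted p was 0.895. Over 16 other settings the difference ranged from -1.97, without Ndp KO library 1, to -1.01, without Ndp KO library 2. By edgeR it was -1.08. Its neighbour Col4a3 had 1252, 521, 609 and 838 in Ndp KO, against 1585, 2953, 625 and 669 in WT, which overlapped. The log2 difference of Col4a3 was -0.64 ± 0.47 (SE). Over 16 other settings it ranged from -0.94 to -0.02, the latter without both libraries of the shared date. Without WT library 2 it was -0.20. Exons of Col4a3 share 563 bases with C430014B12Rik, a gene on the opposite strand, so its reads are uncertain to that extent. Col4a5, on the X chromosome, had 1471, 1103, 1294 and 923 in Ndp KO, against 646, 1524, 575 and 522 in WT. WT library 2 was above all Ndp KO libraries and the other WT libraries were below them. The log2 difference of Col4a5 was 0.68 ± 0.32 (SE) and the limma adjusted p was 0.903. Per kb, Col4a5 stood at 7.31 ± 5.00 times Col4a4 in Ndp KO and at 1.64 ± 1.19 times in WT (SD, n = 4 each), with ranges that overlapped.

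Col4a6, the X-linked partner of Col4a5, had 8.43, 0, 22.6 and 16.5 normalized counts in Ndp KO, against 0, 1.83, 42.9 and 22.1 in WT. It was at or near the floor in 1 Ndp KO and 2 WT libraries, although its pair gene had at least 522 in every library. Col18a1, a basement membrane proteoglycan collagen and the highest of its class, had 6676, 8600, 9976 and 7498 in Ndp KO, against 7359, 9975, 6896 and 4195 in WT. Its log2 difference was 0.25 ± 0.24 (SE). Col15a1, its closest relative, did not reach the minimum, with 1.96 to 28.0 normalized counts in Ndp KO and 0 to 17.2 in WT.

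Among the other collagens, Col9a2 (chromosome 4, 121039385 to 121055322, plus strand) had 17660, 21468, 20908 and 23835 normalized counts in Ndp KO, against 25003, 33537, 17864 and 20886 in WT. Its log2 difference was -0.18 ± 0.19 (SE). Col9a1 had 17735, 20112, 18264 and 30725 in Ndp KO, against 19404, 28625, 13056 and 16884 in WT. Col9a3 had 11695, 14739, 12654 and 17941 in Ndp KO, against 13877, 20454, 10038 and 14900 in WT. All 3 type IX genes overlapped between the genotypes. The ratio of Col9a1 to Col9a2 per kb was 0.750, 0.700, 0.653 and 0.963 in Ndp KO, against 0.580, 0.638, 0.546 and 0.604 in WT. In this ratio alone among the 10 chain ratios formed, the genotypes did not overlap. No test was made of the ratios, and 3.04% of single genes tested did not overlap. The difference of the mean ratios was 0.175, and 0.109 without Ndp KO library 4, the highest. Col9a3 shares 234 exonic bases with Tcfl5 on the opposite strand, and neither Col9a1 nor Col9a2 shares exonic bases with another gene.

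**Figure D3:**
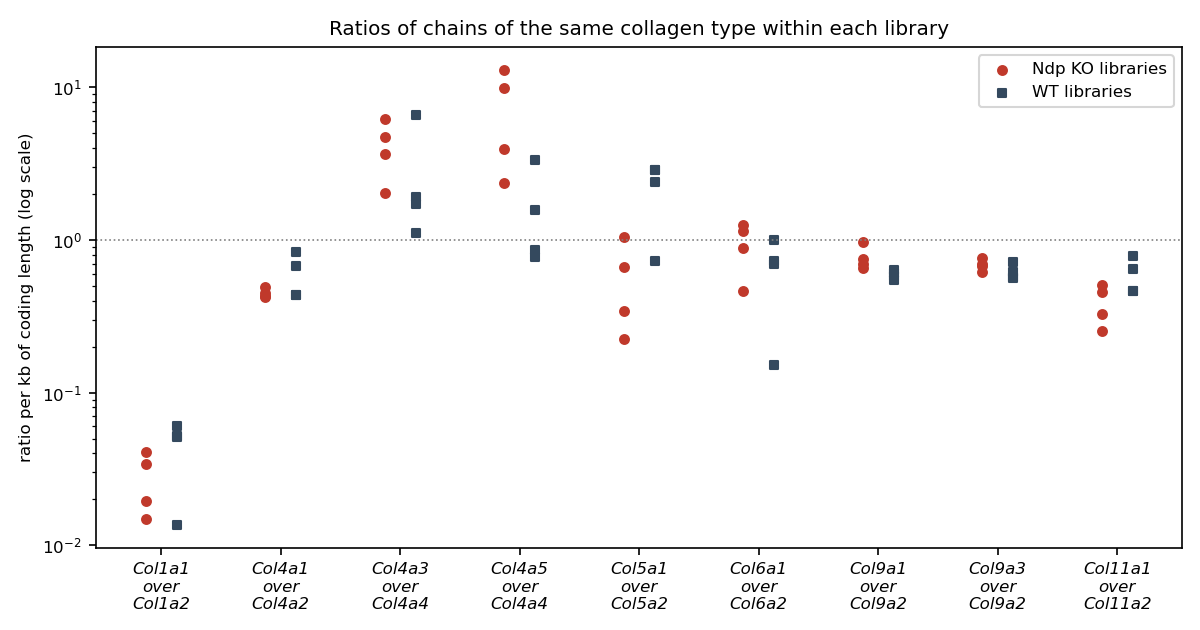
Ratio of pairs of chains of the same collagen type within each library, in normalized counts per kb of coding length (log scale), for Ndp KO (red circles) and WT (dark squares). Col6a3 over Col6a2, which is 0 in 4 libraries, is left out. Only Col9a1 over Col9a2 has no overlap between the genotypes, at 0.653 to 0.963 in Ndp KO and 0.546 to 0.638 in WT.

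Type VI collagen forms beaded microfibrils around cells, and its chains stood far below those of types II and IX, with 45.2 normalized counts per kb in Ndp KO and 25.8 in WT for Col6a1. Col6a1 had 162, 109, 75.8 and 209 normalized counts in Ndp KO, against 11.6, 100, 116 and 89.5 in WT. Col6a2 had 143, 87.3, 165 and 238 in Ndp KO, against 77.1, 146, 118 and 124 in WT. Both overlapped between the genotypes, with log2 differences of 1.10 ± 0.68 and 0.39 ± 0.36 (SE). Col6a3, which is needed in the common type VI trimer, was listed at 0 in Ndp KO libraries 1 and 2 and had 74.0 and 118 in libraries 3 and 4, while WT had 57.0, 15.5, 0 and 0. Col6a6 had 32.7, 0, 9.92 and 101 in Ndp KO, against 0, 90.4, 0 and 0 in WT. Each of these long chains was thus listed at 0 in 4 of the 8 libraries, with both genotypes among them.

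Col6a4 (ENSMUSG00000032572, chromosome 9, 105989454 to 106096783, minus strand), another chain of the type VI family, had no read in any Ndp KO library. In WT libraries 1 to 4 it had 20.1, 9.13, 13.3 and 19.8 normalized counts, which were 19, 10, 17 and 17 reads. The WT mean was 15.6 ± 5.31 (SD, n = 4), so Col6a4 was at least 20.5-fold lower in Ndp KO, taking 3 reads over the 4 Ndp KO libraries as the floor. It missed the minimum for the limma test because only 3 libraries reached 10 normalized counts. In the authors' deposited table its p was 1.27e-05 and its adjusted p 0.0168. DESeq2 on the recovered reads repeated this value, at an adjusted p of 0.0168, and so is not a separate result. Its adjusted p was 0.0298 without WT library 2, 0.0299 without Ndp KO library 2 and 0.0541 to 0.178 without each of the other libraries in turn. With no minimum, limma gave an adjusted p of 0.192 and edgeR 0.824, so only DESeq2 called it. Presence in all WT libraries and absence from all Ndp KO libraries was shared by 13 of the 25343 genes, and the reverse by 17. Exons of Col6a4 overlap 2 gene models on the opposite strand over 127 and 162 bases. Col28a1, also without a read in Ndp KO, had 0, 30.1, 3.90 and 0 normalized counts in WT, and its reads came from WT library 2 for the most part.

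The remaining members include Col7a1, the anchoring fibril chain, with 426, 512, 635 and 356 normalized counts in Ndp KO, against 461, 654, 1208 and 391 in WT. Col8a2, a short-chain collagen known from the basement membrane of the cornea, had 177, 62.8, 120 and 218 in Ndp KO, against 134, 22.8, 107 and 52.3 in WT. Its partner Col8a1 had 326, 71.6, 132 and 322 in Ndp KO, against 176, 212, 315 and 55.8 in WT. None of these 3 genes separated the genotypes. Col13a1, a transmembrane collagen at cell adhesions, had 824, 1019, 1723 and 759 in Ndp KO, against 643, 1079, 346 and 584 in WT, with a log2 difference of 0.74 ± 0.35 (SE) and an adjusted p of 0.903 in limma. Col16a1, a fibril-associated collagen, had 356, 288, 208 and 440 in Ndp KO, against 206, 290, 180 and 214 in WT. For Col13a1 1 WT library lay within the Ndp KO range, and for Col16a1 2 did. Col26a1 was the steadiest member, with 649, 702, 633 and 685 in Ndp KO and 628, 651, 560 and 493 in WT, and its coefficient of variation over the 8 libraries was 10.9%. The transmembrane Col23a1 varied widely, with 31.6, 12.8, 197 and 232 in Ndp KO, against 231, 391, 123 and 165 in WT. Of the fibril-associated genes Col12a1 was not tested, with 0 to 166 normalized counts in Ndp KO and 4.56 to 41.9 in WT. Among the fibril-associated genes tested, Col22a1 averaged 381 ± 201 in Ndp KO and 397 ± 214 in WT, Col14a1 76.1 ± 51.7 and 119 ± 91.0, Col20a1 51.1 ± 33.4 and 24.1 ± 28.6, and Col19a1 18.3 ± 15.0 and 25.5 ± 38.8 (SD, n = 4 each). The transmembrane Col25a1 averaged 59.9 ± 21.1 in Ndp KO and 78.7 ± 43.7 in WT, and Col17a1, an anchor of skin epithelium, 13.1 ± 17.2 and 16.8 ± 21.1. All 6 overlapped between the genotypes.

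Summed over a class, the collagens differed between the genotypes by less than the spread between libraries. All 42 members summed to 164626 ± 20860 normalized counts in Ndp KO and 157331 ± 53549 in WT (SD, n = 4 each). The ratio of these means, Ndp KO over WT, was 1.05, and it was 0.985 without Ndp KO library 4, 0.992 without WT library 3 and 0.954 without WT library 4. Its largest move was upward, without WT library 2. Fibrillar collagens summed to 87480 ± 10733 in Ndp KO and 79603 ± 32044 in WT, basement membrane collagens to 16142 ± 1918 and 15516 ± 5522, and the others to 61004 ± 11197 and 62212 ± 17981. Types II, IX and XI took 82.3% ± 2.46 of collagen counts, not divided by length, in Ndp KO and 83.9% ± 3.23 in WT. In bulk samples such as these, fewer cells of a type and less RNA per cell cannot be told apart.

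Types I, III, V and VI, the collagens of loose connective tissue, summed to 7595, 4983, 8276 and 12819 normalized counts in Ndp KO, against 6104, 5951, 7615 and 2749 in WT. The means were 8418 ± 3259 and 5605 ± 2047 (SD, n = 4 each), a ratio of 1.50, which was 1.28 without WT library 4 and 1.24 without Ndp KO library 4. Leaving out any other library raised the ratio. Ndp KO library 2 lay below 3 of the WT libraries, so the genotypes overlapped. Most of the sum came from Col1a2, at means of 4091 in Ndp KO and 2558 in WT, and Col3a1, at 3350 and 2228. Col1a1, Col5a1, Col5a3 and Col6a4 of the same group had lower means in Ndp KO than in WT. The 14 listed mesenchyme and fibrocyte markers, none a collagen, summed to 19700, 18683, 19491 and 25738 in Ndp KO, against 15604, 20010, 18898 and 16068 in WT. In both sums Ndp KO library 4 was the highest of the 8. All 14 markers were measured and 12 tested, 9 of them with a positive log2 difference (75%, against 52.5% of all genes tested) and 2 at an unadjusted p under 0.05 in limma (16.7%, against 5.57%), with a median log2 difference of 0.67. Coch, an abundant fibrocyte gene of the cochlea, had 691, 240, 1105 and 1309 in Ndp KO, against 244, 135, 266 and 166 in WT, with an adjusted p of 0.0119 in DESeq2 and 0.895 in limma. The 12 cartilage and bone markers summed to 8684 to 10027 in Ndp KO and 8923 to 11049 in WT. Of 9 tested, 6 were positive and 2 were at an unadjusted p under 0.05 (22.2%), with a median log2 difference of 1.32. Ibsp of bone had 1182, 47.1, 1776 and 176 in Ndp KO, against 124, 8.22, 23.4 and 46.5 in WT. Sox9, also on this list, averaged 5977 ± 666 in Ndp KO and 7314 ± 793 in WT (SD, n = 4 each), a log2 difference of -0.29. Cnmd averaged 2253 in Ndp KO and 2388 in WT, a log2 difference of -0.23. Sox9 and Cnmd made up most of the summed counts of this list. The median of 1.32 was the value of Dmp1, which averaged 45.2 in Ndp KO and 34.0 in WT. The cell source of the Sox9 RNA was not tested. The 9 endothelium and pericyte markers measured, of 11 listed, summed to 215 to 374 in Ndp KO and 120 to 246 in WT. Of 7 tested, 6 were positive and 1 was at an unadjusted p under 0.05 (14.3%), with a median log2 difference of 1.13. The 12 macrophage and blood markers summed to 3821 to 5961 in Ndp KO and 2091 to 5011 in WT. Of these, C1qb alone averaged 2353 in Ndp KO and 2043 in WT. Of 10 tested, 9 were positive and 4 were at an unadjusted p under 0.05 (40%), all higher in Ndp KO, with a median log2 difference of 1.71. Schwann cell and glia markers were positive for 6 of 12 tested, with a median log2 difference of 0.08. Markers of marginal and intermediate cells of the stria vascularis were positive for 3 of 6, with a median of -0.14. Spiral ganglion neuron markers were positive for 5 of 9, with a median of 0.02. In these lists 0, 0 and 2 markers were at an unadjusted p under 0.05, 1 higher and 1 lower in Ndp KO. None of the markers in any of these lists passed in limma. The part of these cell types in the collagen values was not tested.

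**Figure D4:**
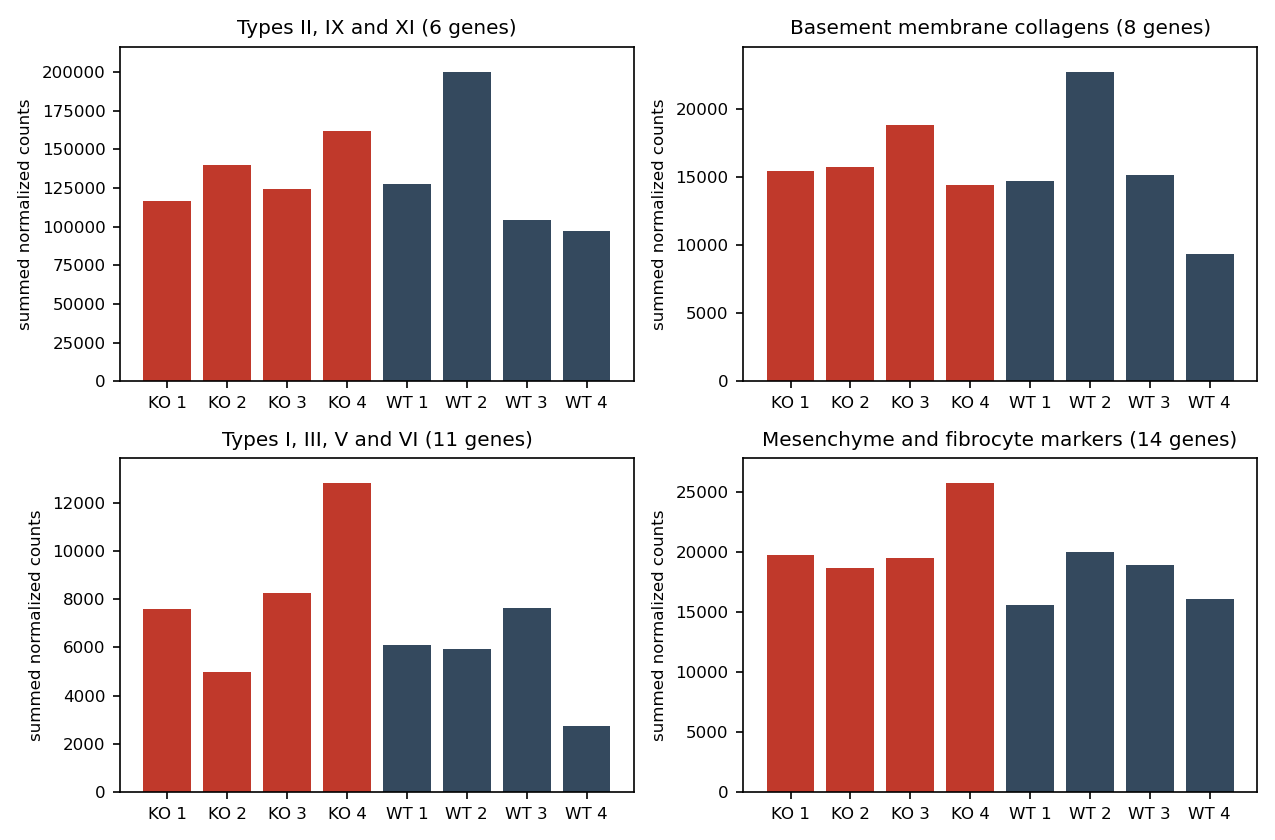
Summed normalized counts in each library, Ndp KO (red) left of WT (dark), for types II, IX and XI, the basement membrane collagens, types I, III, V and VI, and the 14 mesenchyme and fibrocyte markers. Axes start at 0 and differ between panels. WT library 2 is the highest and WT library 4 the lowest in the upper panels, and Ndp KO library 4 is the highest in the lower panels.

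Collagen chains need enzymes, carriers and receptors, and of 106 listed genes of these kinds 102 were measured and 92 tested. None passed in limma, and 7 had an unadjusted p under 0.05 (7.61%, against 5.57% of all genes tested), 5 higher and 2 lower in Ndp KO. Of the folding and modification enzymes 0 of 18 tested were at an unadjusted p under 0.05, with a median log2 difference of -0.01. They include P3h1, a prolyl 3-hydroxylase, with 978 ± 144 normalized counts in Ndp KO and 1239 ± 178 in WT, and P4ha2, a prolyl 4-hydroxylase subunit, with 652 ± 89.1 and 991 ± 463 (SD, n = 4 each). Neither the 8 secretion factors, such as Sec23a of the vesicle coat (3700 ± 220 in Ndp KO and 3224 ± 481 in WT), nor the 11 procollagen proteases and cross-linking enzymes tested had a gene at that level. The cross-linking enzyme Lox averaged 8198 ± 2044 in Ndp KO and 6696 ± 2424 in WT.

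Collagen receptors gave 2 of 10 tested genes at an unadjusted p under 0.05 (20%, against 5.57% of all genes tested), both higher in Ndp KO. Mrc2, an endocytic receptor that clears collagen, had 289, 124, 383 and 253 normalized counts in Ndp KO, against 83.4, 162, 108 and 53.5 in WT, and its log2 difference of 1.36 ± 0.43 (SE) had an adjusted p of 0.895 in limma. Itga11, an integrin chain for fibrillar collagen, had 44.3, 63.8, 24.4 and 84.7 in Ndp KO, against 1.06, 57.5, 3.90 and 20.9 in WT. Both overlapped between the genotypes in 1 WT library. Among the 11 degradation enzymes and inhibitors tested, 0 were at that level, and the gelatinase Mmp2 averaged 1756 ± 926 in Ndp KO and 1126 ± 301 in WT.

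Of 15 fibril binding proteins tested, 2 were at an unadjusted p under 0.05 (13.3%, against 5.57% of all genes tested), of which the leucine-rich proteoglycan Prelp was higher and the matrilin Matn2 lower in Ndp KO. Matn2 had 209, 149, 180 and 189 normalized counts in Ndp KO, against 326, 340, 270 and 228 in WT, with no overlap, a log2 difference of -0.67 ± 0.24 (SE) and an adjusted p of 0.895 in limma. Prelp had 34.8, 218, 25.3 and 94.6 in Ndp KO, against 0, 0, 65.5 and 17.4 in WT, which overlapped. The 14 other basement membrane proteins tested had a median log2 difference of 0.39, against 0.02 over all genes tested. Of the 14, 11 were positive (78.6%, against 52.5% of all genes tested) and 3 were at an unadjusted p under 0.05 (21.4%, against 5.57%). The laminin chain Lama5 had 1761, 1874, 1405 and 1758 in Ndp KO, against 2027, 2344, 2160 and 3115 in WT, without overlap, and a log2 difference of -0.49 ± 0.17 (SE). The laminin gamma chain genes Lamc1 and Lamc3 had positive log2 differences of 0.43 ± 0.19 and 1.25 ± 0.49 (SE) and overlapped between the genotypes. The adjusted p of all 3 was 0.895 in limma. Of the 5 tectorial membrane glycoproteins tested, which embed types II, IX and XI, 0 were at an unadjusted p under 0.05, and Tectb averaged 179660 ± 27911 in Ndp KO and 214099 ± 73356 in WT (SD, n = 4 each).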

How the data were processed

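The authors deposited normalized counts of 25343 genes, a signal in which each library was divided by a size factor of its own, as its values show, with a column for each library. Adjusted and unadjusted p-values of the authors' genotype comparison are also in the deposited table, and its file headers point to DESeq2. DESeq2 1.26.0, Salmon 0.14.2, bcl2fastq 2.20 and mm10 are listed, without roles, in the submitters' processing notes. Sorting, SMART-Seq v4 cDNA and Nextera XT libraries are given per the labels' protocols, and this kit does not mark strand. Dividing each column by its smallest step gave whole numbers for 100% of 202744 values (relative tolerance 1e-06). These are called reads, although the role of Salmon is not given. Floors cover counting error only, since without molecular identifiers PCR copies of a molecule count repeatedly.

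Genotypes were compared with limma 3.58.1 (R 4.3.3, intensity trend) on log2(normalized count + 1), two-sided, Benjamini-Hochberg adjusted over all 18203 genes with 10 or more normalized counts in at least 4 libraries, at a threshold of 0.05. Fold changes of low genes can be understated or overstated on this scale. With no minimum, Col6a4 had a log2 difference of -3.99 in limma, against -6.39 in DESeq2. Col5a3, with zeros in both genotypes, had -1.69 in limma and -0.098 in edgeR. edgeR 4.0.16 (quasi-likelihood) and DESeq2 1.42.0 on the recovered reads, other pseudocounts (0.1 and 5), no minimum, a minimum of 50, TMM scaling and leaving out libraries were alternatives. Some were added after the data were seen, namely transcript length, class sums without the top member, the shared-date pair, leaving out libraries for ratios and sums, and the fits of Col6a4. The sums over types II, IX and XI and over types I, III, V and VI were not among the planned classes. Each test was tried on simulated data over 18203 genes, drawn independently of each other and with the same spread in both genotypes. There edgeR called 32 of 100 genes changed 2-fold and 72 of 100 changed 4-fold with 5 false calls, and DESeq2 51 and 79 with 47. So many changed genes make the adjustment less strict than in the data. Coding lengths and exons came from GENCODE M21, in which all 42 collagen coordinates matched, and promoter windows from RefSeq.

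Groups came from the genotype labels, and replicate numbers follow accession order. Every collagen could be named, and values per library are given at least for the highest per kb and the smallest p of each class, for genes at an unadjusted p under 0.05 or without overlap, and for their chain partners. From each pathway list up to 4 genes with the smallest p could be named. Col2a1's neighbours in level, values per library of Col3a1, Col9a1, Col9a3, Col23a1 and Col28a1, and the genes Coch, Ibsp, Sox9, Cnmd, Dmp1, C1qb, Hes5 and Hey1, were chosen after their values were seen. Members and lists were chosen with earlier results of these data known. Col10a1, Col6a5, Kdr, Cldn5 and Kcne1 are not analysed here.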

Additional observations from a re-analysis of the deposited data

Results flagged for a closer look

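In 100 groups of 4 libraries examined, 6 held a library far from the other 3, by the share of the group's range that the gap to its nearest neighbour took. The groups were each collagen tested, each chain ratio, and the summed counts of each class and of all members, in each genotype. Chance flags about 1 in 20 groups. Ndp KO library 3 stood above its group for Col1a1, at 168 normalized counts against 86.4 to 92.4 in the other Ndp KO libraries, and for Col5a3, at 76.7 against 0 to 1.10. WT library 2 stood above its group for Col4a5, at 1524 against 522 to 646 in the other WT libraries, for Col5a2, at 300.3 against 80.2 to 95.1, and for the ratio of Col4a3 to Col4a4 per kb, at 6.56 against 1.12 to 1.92. WT library 1 had a ratio of Col6a3 to Col6a2 of 0.233, against 0 to 0.0335 in the other WT libraries. No cause of these was tested.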

How the results depend on the processing

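Over all genes limma called 1, and 0 with a pseudocount of 0.1, with a minimum of 50 and without the shared-date libraries, and 0 to 2 with each library left out. edgeR called 0 and DESeq2 34. Of the collagen genes limma called 0 and DESeq2 1. Collagen genes at an unadjusted p under 0.05 numbered 4, 2 by edgeR, 7 without the shared-date libraries and 1 to 8 with each library left out. The median log2 difference of the basement membrane collagens was 0.11, but -0.27 by edgeR and -0.26 by DESeq2, and -0.20 to 0.26 with each library left out. That of the other collagens was 0.18, 0.68 without the shared-date libraries and -0.02 to 0.38 with each library left out. The median over all collagens tested was -0.02 to 0.32 and that of the fibrillar collagens -0.02 to 0.34 with each library left out. The causes of these moves were not tested.

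Of the 36 collagens tested, 22 had the same sign in every setting tried over all genes (the shared-date pair alone not counted), and 14 changed sign in at least 1 (Col1a1, Col2a1, Col4a1, Col4a6, Col6a3, Col8a1, Col9a1, Col9a3, Col11a1, Col17a1, Col19a1, Col22a1, Col25a1 and Col27a1). None was called in any of these settings. Leaving out 1 library moved the ratio of summed collagen counts, Ndp KO over WT, between 0.954 and 1.25 around 1.05. The mean ratio of Col9a1 to Col9a2 differed by 0.109 to 0.213. Low counts limit what can be said of Col6a4, Col15a1, Col24a1 and Col28a1. No paired analysis was possible because replicate numbers follow accession order and only 1 title date occurs in both genotypes.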
